A study of Mus musculus with 4 samples.

Results

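Interleukin-1 axis and inflammasome genes were followed across the leukocytes of the mouse hindpaw. The members were the 9 genes Il1a, Il1b, Il18, Il1rn, Il1r1, Il1rap, Il1r2, Nlrp3 and Casp1, chosen by symbol from the 32285 genes of the count matrices, and all 9 were present in all 4 matrices. For each library and each cell class, the unique molecular identifiers (UMIs, 1 per captured transcript) of a gene were summed over the barcodes of that class and scaled to the class total as counts per 1e+06 UMIs (CPM). Beside it stands the share of barcodes in which the gene had a UMI. A barcode was used if it had 200 or more genes and no more than 10% mitochondrial UMIs, and classes were set by marker genes that did not include any member.

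CD45+ cells were sorted from collagenase-digested hindpaws of perfused male mice on the C57BLKS/J background. Lepr db/db mice (DB), in which leptin cannot signal through its receptor and obesity with type 2 diabetes develops, were compared with their Lepr WT/WT littermates (WT) at 12 and 21 weeks of age. Each of the 4 conditions had 1 library from the pooled cells of 2 to 3 mice, so no test between conditions was possible and every interval on a level, a share or a ratio covers counting error only. Marker-gated classes are defined by mRNA alone, and both paws were cut at the ankle, so marrow cells could enter the digest. The libraries held 5998 to 9124 barcodes, of which 5271 to 8707 were kept with medians of 5355 to 8000.5 UMIs, and 16.03% to 27.2% of the kept barcodes met no gate. The 2 libraries aged 21 weeks shared 146 kept barcodes, 131 of them outside every gate in both, and every other pair shared 5 to 38. Leaving the shared barcodes out changed no call on a member. The matrix headers name Cell Ranger 5.0.0 at 12 weeks and 6.0.0 at 21 weeks, so software and age cannot be told apart. Xcr1+ cells numbered 2 in 21-week-DB and were left out there.

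Interleukin-1α and interleukin-1β are inflammatory cytokines that act through a receptor made of Il1r1 and its accessory chain Il1rap, while the antagonist Il1rn occupies the receptor without signalling and Il1r2 is a decoy that binds ligand without signalling. The precursors of interleukin-1β and interleukin-18 are cut to their active forms by caspase-1, which is recruited by inflammasomes such as the one built by NLRP3. Among leukocytes, myeloid cells are the usual source of interleukin-1β, and γδ T cells are known to respond to it. Only CD45+ cells were sorted here, so sources outside the leukocytes were not measured. Transcript counts show neither cleavage nor secretion.

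The genes lie on 5 chromosomes of the GRCm38 assembly, with all 9 annotated as protein-coding. Il1b (chr2:129364570-129371139, minus strand), Il1a (chr2:129299610-129309972, minus strand) and Il1rn (chr2:24336853-24351494, plus strand) share chromosome 2, and Il1r1 (chr1:40225080-40317257) and Il1r2 (chr1:40074079-40125231) are neighbours on chromosome 1. Il1rap (chr16:26581704-26730117), Nlrp3 (chr11:59541568-59566956), Casp1 (chr9:5298517-5307265) and Il18 (chr9:50554827-50581840) complete the list, and the 6 genes from Il1r1 onward are all on the plus strand. The 250 bases upstream of a transcription start are printed for Il1b, Il1a, Nlrp3 and Il1rn because these 4 genes moved together between macrophage subsets and with age, as described further on. The windows come from RefSeq on GRCm38.p6, read 5′ to 3′ on the strand of the gene (Il1b chr2:129371140-129371389, Il1a chr2:129309973-129310222, Nlrp3 chr11:59541319-59541568, Il1rn chr2:24336610-24336859, the first of 2 windows for Nlrp3 and of 3 for Il1rn). Capitals mark matches, on either strand, to 5 motifs. They are the κB-type (GGGA, any 4 bases, then CC), the AP-1-type (TGANTCA), the C/EBP-type (TTNNGNAA), the PU.1-type (GAGGAA) and the TATA box (TATAAA).
Il1b: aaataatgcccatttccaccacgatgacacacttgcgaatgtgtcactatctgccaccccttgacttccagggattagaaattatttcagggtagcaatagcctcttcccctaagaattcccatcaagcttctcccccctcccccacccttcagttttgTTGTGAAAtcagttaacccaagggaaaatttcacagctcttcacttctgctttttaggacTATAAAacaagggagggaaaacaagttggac
Il1a: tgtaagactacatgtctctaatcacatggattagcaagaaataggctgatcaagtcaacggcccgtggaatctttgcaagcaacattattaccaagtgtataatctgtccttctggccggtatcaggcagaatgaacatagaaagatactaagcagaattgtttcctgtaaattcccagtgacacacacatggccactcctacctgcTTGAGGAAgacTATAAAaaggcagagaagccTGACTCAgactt
Nlrp3: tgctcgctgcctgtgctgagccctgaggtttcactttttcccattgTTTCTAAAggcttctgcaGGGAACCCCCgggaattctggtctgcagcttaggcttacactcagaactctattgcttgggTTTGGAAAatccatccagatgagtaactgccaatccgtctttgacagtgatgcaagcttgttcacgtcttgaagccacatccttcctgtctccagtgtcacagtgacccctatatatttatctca
Il1rn: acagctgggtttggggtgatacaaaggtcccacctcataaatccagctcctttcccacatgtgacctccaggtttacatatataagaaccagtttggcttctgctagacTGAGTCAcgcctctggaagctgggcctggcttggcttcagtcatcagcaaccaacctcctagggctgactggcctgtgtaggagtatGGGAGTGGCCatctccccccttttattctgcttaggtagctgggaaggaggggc
A TATA box starts 31 bases before the Il1b start and 32 bases before the Il1a start, and a window of the other ligand, Il18, holds one at 175 bases. The C/EBP-type letters lie 91 bases upstream in Il1b and 43 bases upstream in Il1a, where they overlap the PU.1-type letters at 41. κB-type letters are in the Nlrp3 window at 186 bases and in the Il1rn window at 54 bases, and AP-1-type letters are at 12 bases in Il1a and 141 bases in Il1rn. Of 32851 RefSeq windows of this length, 17.6% hold the κB-type letters, 6.75% the AP-1-type, 36.8% the C/EBP-type, 23.3% the PU.1-type and 12.4% the TATA box, so each match is common and is a description of the window only.

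Il1b was highest in neutrophils in 3 libraries and, in 21-week-DB, in antigen-presenting cells with Cd207, the gene of langerin. Throughout, 4 values in a row run from WT to DB at 12 weeks and then from WT to DB at 21 weeks. The Il1b level in neutrophils was 3234, 9644, 7449 and 5614 CPM, from 101, 73, 104 and 41 barcodes. Cd207+ cells without Xcr1, which number only 11 to 35 per library, had 272, 2026, 1026 and 7371 CPM, below monocytes and cDC2 in both WT libraries. Neutrophils were the first class in 3 libraries, 4.62 to 6.96 times above the next class, and Cd207+ cells were first in 21-week-DB, 1.31 times above neutrophils, with no overlap of the exact Poisson intervals in any library. Type 2 conventional dendritic cells (cDC2) had 333, 678, 1549 and 4088 CPM of Il1b. Monocytes had 465, 895, 1614 and 3303 CPM, and macrophages, the most frequent gated class in every library, had 58.8, 51.1, 358 and 372 CPM. In cDC2 and monocytes the 4 libraries stood in the same order, with 12-week-WT lowest and 21-week-DB highest, whereas in macrophages the 2 libraries of each age lay close together. By their number and level together, cDC2 held 32.4%, 35.2%, 49.5% and 40.2% of the Il1b UMIs of all kept barcodes, neutrophils 22.3%, 20.6%, 5.87% and 3.41%, and macrophages 11.7%, 9.91%, 13.5% and 16.1%.

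**Figure D1:**
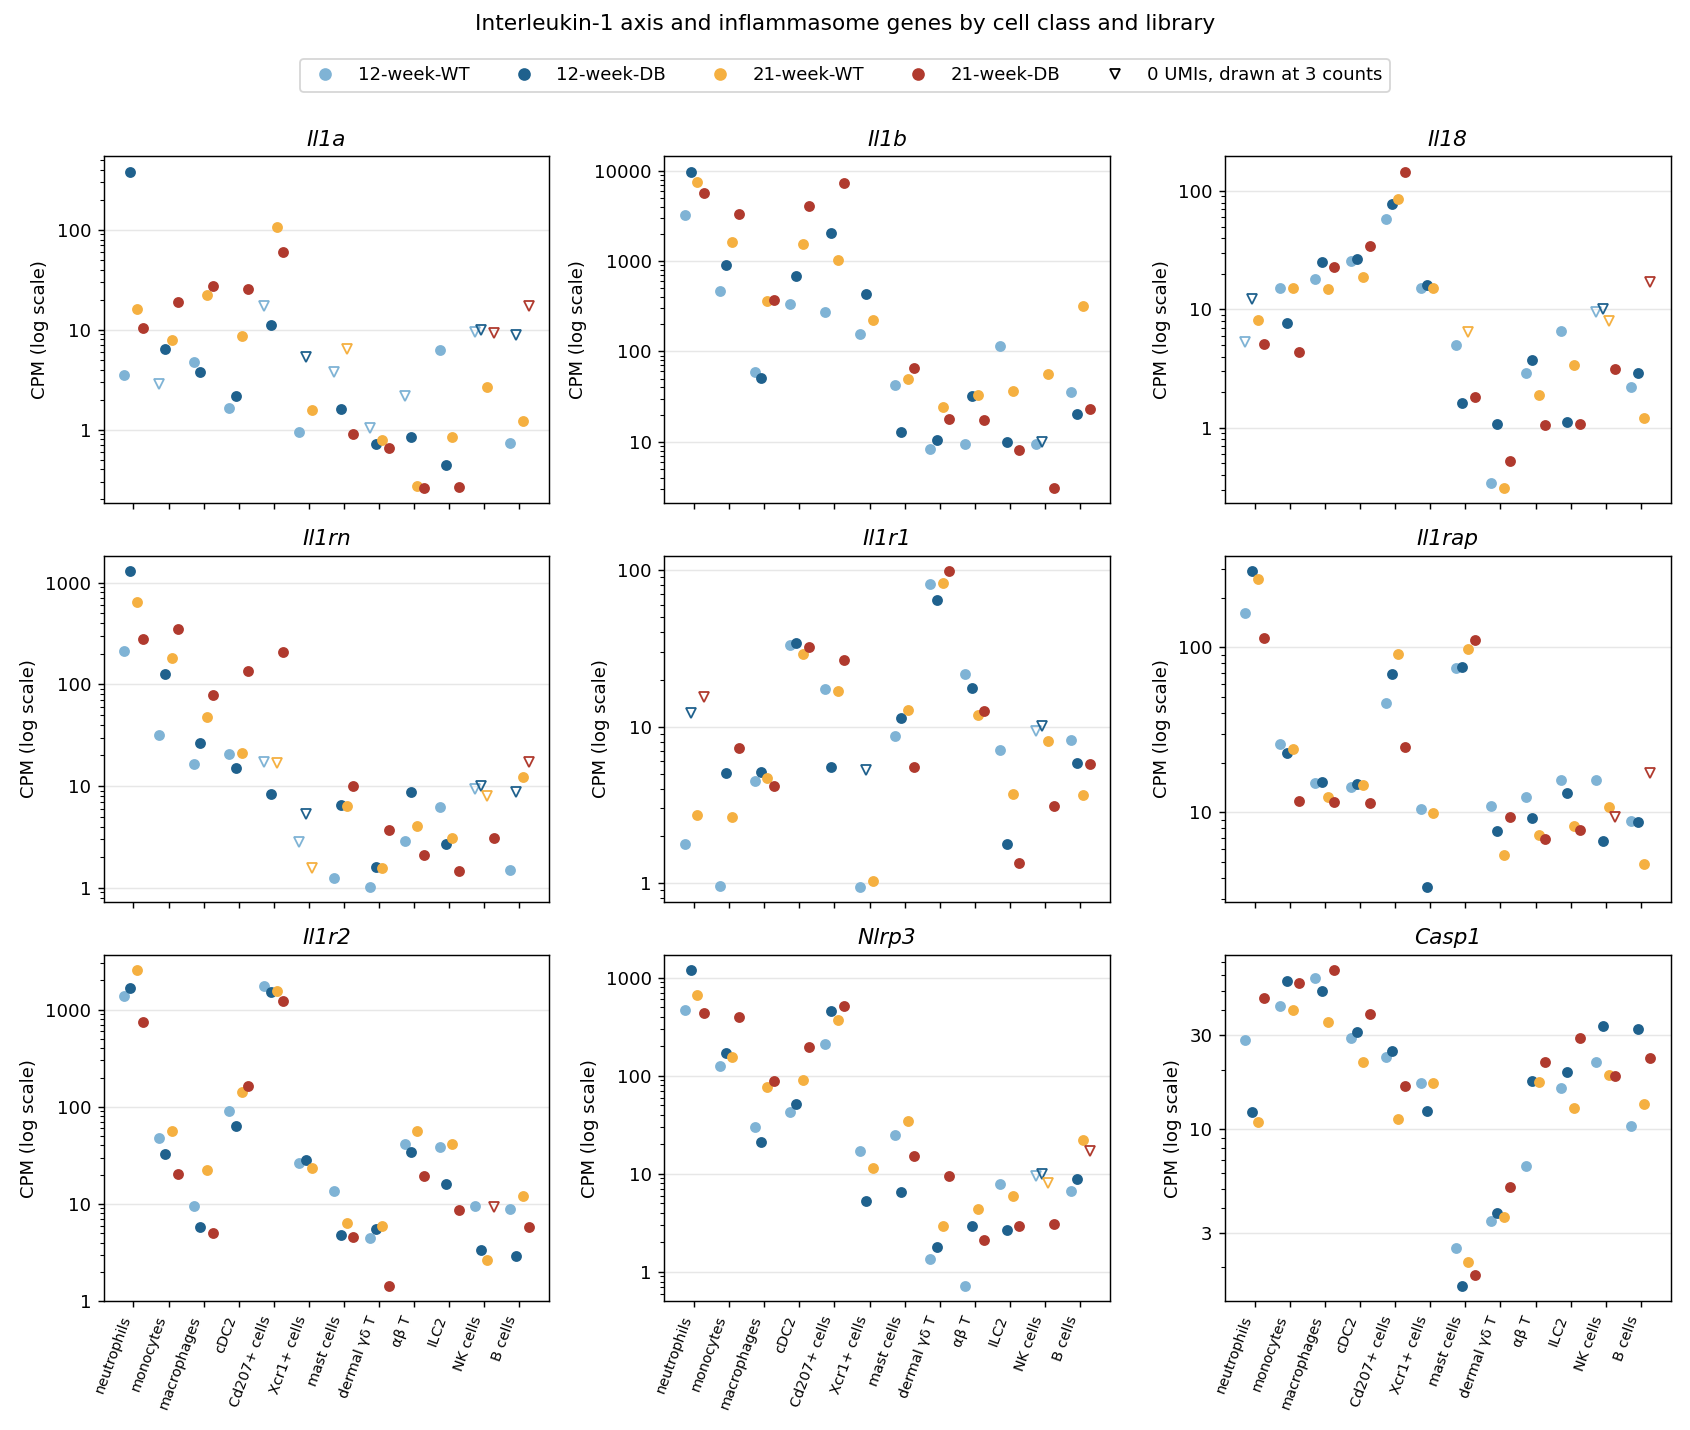
Level of each of the 9 genes (CPM, log axis) in 12 marker-gated classes, 1 point per library, with libraries that had 0 UMIs drawn as triangles at the level of 3 counts. Il1b, Il1rn, Il1r2 and Nlrp3 are high in neutrophils, Il1r1 is highest in dermal γδ T cells, and Casp1 is spread over macrophages, monocytes and dendritic cells.

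The share of barcodes with an Il1b UMI separated cells that carried it broadly from cells in which few barcodes did. In neutrophils 82.2%, 93.2%, 97.1% and 97.6% of barcodes had an Il1b UMI, and thinning every barcode to 2000 UMIs left 76.1% to 93.8%. In macrophages the shares were 11.1%, 10.97%, 26.1% and 16.7%, and the 5% of macrophage barcodes with the most Il1b held 87.7% to 94.5% of its UMIs. αβ T cells, which are not a known source of Il1b, had shares of 6.03%, 6.18%, 10.9% and 7.15% at median depths of 5414 to 5877 UMIs, against 8964 to 10570.5 in macrophages. After thinning, the Il1b share was 4.65%, 3.93%, 11.9% and 8.26% in macrophages and 2.05%, 3.30%, 4.85% and 3.06% in αβ T cells. The macrophage share thus stood above that of αβ T cells in every library, with the smallest gap in 12-week-DB. No interval was computed for the thinned shares, so whether the gaps exceed counting error was not tested. The cDC2 share went from 34.0% and 37.0% at 12 weeks to 49.4% in 21-week-WT and 64.5% in 21-week-DB, and the median cDC2 barcode had 0 Il1b UMIs in 3 libraries and 11.5 in 21-week-DB. In cDC2 the top 5% of barcodes held 64.5%, 57.0%, 47.0% and 24.9% of the Il1b UMIs, so the transcripts were spread over more barcodes where the level was higher.

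**Figure D2:**
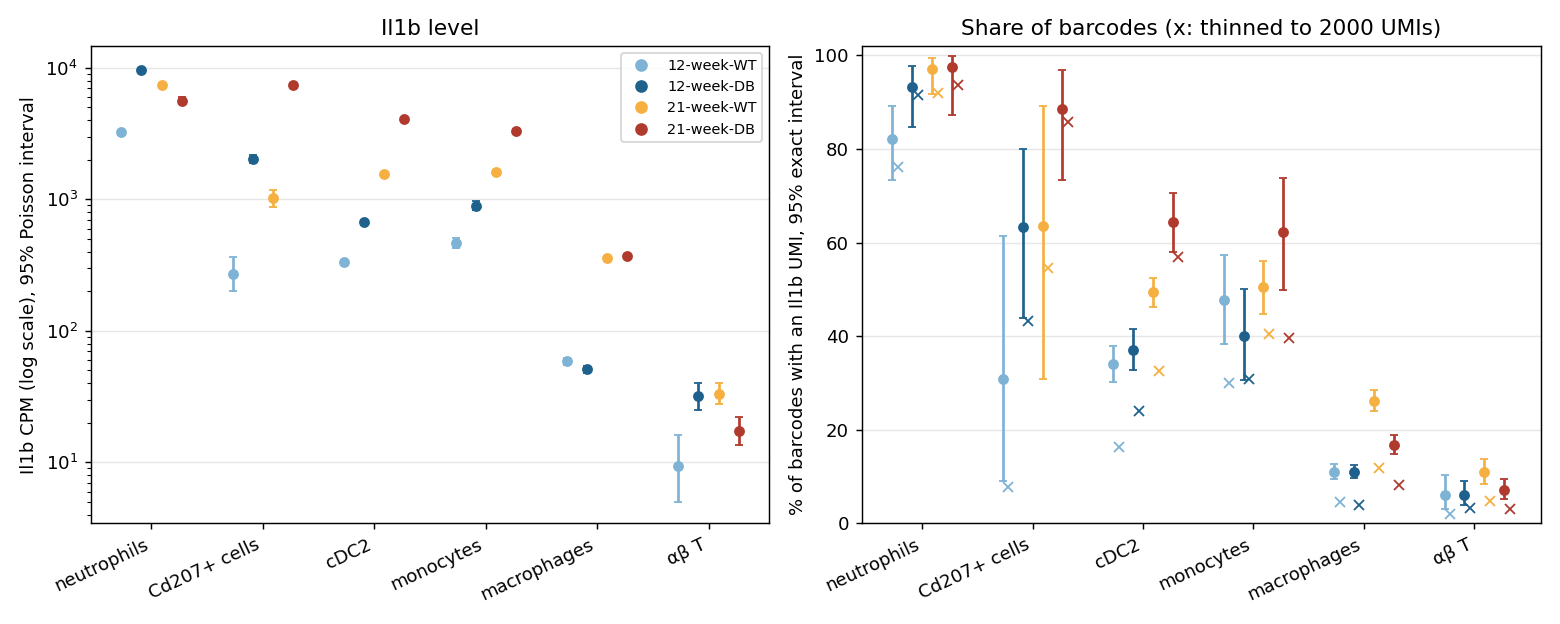
Il1b in 6 classes and 4 libraries: the left panel gives the level (CPM, log axis) with exact Poisson 95% intervals, the right panel the percent of barcodes with a UMI with exact binomial 95% intervals, and crosses the share after thinning to 2000 UMIs. Neutrophils keep 76.1% or more after thinning, while macrophages have at most 11.9% and αβ T cells at most 4.85%.

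Il1a was a low-level transcript, and macrophages and antigen-presenting cells led it only at 21 weeks. The first class at 12 weeks was type 2 innate lymphoid cells in WT, at 6.22 CPM with an interval that overlapped that of macrophages. In 12-week-DB it was neutrophils, at 378 CPM. Macrophages had 4.75, 3.77, 22.3 and 27.2 CPM, from 77, 84, 392 and 377 UMIs. In cDC2 the level was 1.63, 2.18, 8.71 and 25.5 CPM, so both classes had more Il1a in both libraries of the later age. Cd207+ cells had 0, 4, 19 and 29 UMIs, the highest Il1a CPM of the classes described at 21 weeks. Within macrophages, those with UMIs of both Ccl2 and Cxcl1, chemokine genes for monocytes and neutrophils, had 13.7, 33.2, 114 and 141 CPM of Il1a. Neutrophils had 2, 93, 6 and 2 Il1a UMIs, and in 12-week-DB 83.9% of the 93 came from 4 barcodes. Il1a was therefore higher in neutrophils than in macrophages only through that library (log2 difference 3.35 ± 0.80 SE, edgeR quasi-likelihood adjusted p = 0.000551 with it, -0.31 and adjusted p = 0.818 without it).

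Il18 was highest in Cd207+ cells in all 4 libraries, though its interval there overlapped that of cDC2 in 12-week-WT, and near 0 in neutrophils. Its level was 57.8, 77.6, 85.0 and 144 CPM in Cd207+ cells, 25.6, 26.6, 18.8 and 34.4 in cDC2, and 17.9, 25.03, 15.0 and 22.9 in macrophages. Neutrophils had 0, 0, 3 and 1 Il18 UMIs. A floor of 3 counts per library in place of 0 lay 3.37 and 2.05 times below macrophages at 12 weeks in WT and DB. Il18 was higher in Cd207+ cells than in cDC2 (log2 difference 1.86 ± 0.32, adjusted p = 1.68e-05) and lower in neutrophils than in macrophages (-2.28 ± 0.76, adjusted p = 0.0111). The second difference was lost in 4 alternative settings, with adjusted p from 0.0544 to 0.0880, among them the fits without 12-week-WT and without 12-week-DB.

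Il1rn, the receptor antagonist, was highest in neutrophils in 3 libraries and in monocytes in 21-week-DB, where the intervals of the 2 classes overlapped. Its level in neutrophils was 213, 1289.9, 649 and 278 CPM, with 34.1% to 61.5% of barcodes positive, against at most 2.65% in B cells at median depths of 2598 to 3196 UMIs in neutrophils and 2656.5 to 3776 in B cells. Monocytes had 31.6, 127, 182 and 352 CPM and macrophages 16.4, 26.3, 47.4 and 78.7 CPM, both with 12-week-WT lowest and 21-week-DB highest. In cDC2 the level was 20.6, 14.9, 21.3 and 134 CPM, so 21-week-DB stood apart from the other 3 libraries. Xcr1+ cells had 0 Il1rn UMIs in all 3 libraries tested. A floor of 3 counts in place of 0 lay 7.23, 2.81 and 13.7 times below cDC2 in WT and DB at 12 weeks and in 21-week-WT. Cd207+ cells had 0, 3, 0 and 101 UMIs, with all but 3 in 21-week-DB. Il1rn was higher in neutrophils than in macrophages (log2 difference 4.60 ± 0.52, adjusted p = 5.83e-10) and higher in monocytes than in macrophages (2.16 ± 0.48, adjusted p = 0.000307), the second with an adjusted p of 0.0502 in DESeq2.

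Il1r1, the signalling receptor, was highest in T cells and dendritic cells and low in neutrophils and macrophages. Dermal γδ T cells, at 81.2, 64.6, 82.7 and 98.3 CPM, were the first of the classes described in all 4 libraries, 1.88 to 3.03 times above cDC2 with no overlap of intervals. Other Trdc+ T cells, with 14 to 19 barcodes per library, were not ranked. cDC2 held 33.3, 34.4, 29.0 and 32.5 CPM, a narrow range, while macrophages had 4.18 to 5.12 CPM and neutrophils 1, 0, 1 and 0 UMIs. The share of cDC2 barcodes with an Il1r1 UMI was 29.0%, 30.3%, 27.2% and 28.9%, against 1.97%, 1.11%, 1.06% and 2.44% of B cells. At 2000 UMIs per barcode these shares were 3.95% to 6.14% in cDC2 and at most 1.33% in B cells. Il1r1 was higher in cDC2 than in macrophages (log2 difference 2.96 ± 0.23, adjusted p = 9.68e-15), lower in Xcr1+ cells than in cDC2 (-5.10 ± 0.57, adjusted p = 2.83e-09), where it had 1, 0 and 2 UMIs, and lower in type 2 innate lymphoid cells (ILC2) than in αβ T cells (-2.35 ± 0.32, adjusted p = 1.99e-07). The receptor chain that signals was thus found in cDC2 and T cells, and at near 0 in Xcr1+ cells and neutrophils.

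Il1rap, the accessory chain that Il1r1 needs and that also serves the receptors for interleukin-33 and interleukin-36, was highest in cells with little Il1r1. Neutrophils had 161, 289, 258 and 113 CPM and mast cells 75.1, 76.0, 98.3 and 110.0 CPM. Macrophages had 11.6 to 15.2 CPM and cDC2 11.5 to 14.9 CPM, levels that hardly differed between the 4 libraries. Mast cells were above macrophages in Il1rap (log2 difference 2.80 ± 0.24, adjusted p = 1.24e-13), and so were neutrophils (4.38 ± 0.26, adjusted p = 6.16e-19). Il1r1 in mast cells was 5.48 to 12.8 CPM against 4.18 to 5.12 CPM in macrophages, a log2 difference of 0.82 at the edge of the threshold (adjusted p = 0.0622). It passed in 6 alternative settings, with adjusted p from 0.00940 to 0.0493, among them the fit without 21-week-DB (0.0366).

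Il1r2, the decoy receptor, marked neutrophils and Cd207+ cells. The level was 1395, 1664, 2527 and 737 CPM in neutrophils and 1735, 1533, 1559 and 1224 CPM in Cd207+ cells. In neutrophils 95.05%, 82.2%, 94.2% and 70.7% of barcodes had an Il1r2 UMI, in Cd207+ cells 84.6%, 93.3%, 90.9% and 88.6%, and in B cells 1.11% to 4.76%. The 2 classes changed places, with Cd207+ cells first in 12-week-WT and 21-week-DB by 1.24 and 1.66 times and neutrophils first in 21-week-WT by 1.62 times, while their intervals overlapped in 12-week-DB. In cDC2 the level was 91.5, 64.0, 143 and 163 CPM, and in macrophages 9.63, 5.80, 22.5 and 4.98. Cd207+ cells exceeded cDC2 by a log2 difference of 3.63 ± 0.37 (adjusted p = 1.70e-10), cDC2 exceeded macrophages by 3.85 ± 0.38 (adjusted p = 1.33e-11), and dermal γδ T cells were below αβ T cells (-3.12 ± 0.43, adjusted p = 2.26e-07). Among T cells the decoy and the signalling receptor therefore ran in opposite directions, since Il1r1 was higher in dermal γδ T cells (2.40 ± 0.24, adjusted p = 7.31e-11).

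Nlrp3, the sensor of the inflammasome, and Casp1, its protease, were not highest in the same cells. Nlrp3 was 470, 1184, 670.5 and 438 CPM in neutrophils, 208, 460, 374 and 513 CPM in Cd207+ cells, 126, 172, 156 and 397 CPM in monocytes, 42.6, 50.9, 90.1 and 198 CPM in cDC2 and 30.3, 21.2, 77.1 and 87.5 CPM in macrophages. Casp1 was 58.2, 50.2, 34.8 and 63.6 CPM in macrophages and 42.1, 55.9, 40.0 and 55.3 CPM in monocytes, whose intervals overlapped in all 4 libraries. Neutrophils had only 16, 3, 4 and 9 Casp1 UMIs, or 28.4, 12.2, 10.9 and 46.4 CPM. Relative to macrophages, neutrophils were higher in Nlrp3 (log2 difference 4.41 ± 0.42, adjusted p = 3.58e-12), while the Casp1 difference of -0.63 ± 0.30 did not pass (adjusted p = 0.0742). It passed with doubled marker thresholds (-1.02, adjusted p = 0.0137), without 12-week-WT (-0.85, 0.0440) and without a gene filter (-0.76, 0.0491). Mast cells had 1.62 to 2.503 CPM of Casp1, 0.324% to 0.608% of barcodes, and were lower than macrophages by a log2 difference of -4.81 ± 0.38 (adjusted p = 4.94e-15). Casp1 was also lower in dermal γδ T cells, at 3.43 to 5.12 CPM, than in αβ T cells, at 6.52 to 21.8 CPM (-2.07 ± 0.25, adjusted p = 9.88e-09).

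The class comparisons were fitted over all genes with edgeR's quasi-likelihood test on the summed UMIs, with the library as a block, and p-values were adjusted with the Benjamini-Hochberg method over 11451 genes. The 4 sums of a class came from 4 different conditions, and all 13 gated classes, 51 sums, were fitted together. A call thus means that the classes differed beyond a spread estimated from all classes, not from that difference alone. With only the 2 classes fitted, calls gained included Il1b lower in Xcr1+ cells than in cDC2 (edgeR adjusted p = 0.000349 in place of 0.125). Il18 was then called higher in cDC2 than in macrophages (0.00463 in place of 0.0933). Between neutrophils and macrophages 6 of the 9 members were higher and 1 lower, with a member median log2 difference of 4.38 against -0.32 over all genes, and 48.9% of all genes passed. Between monocytes and macrophages 5 were higher and none lower (median 0.90 against -0.06, 39.2% of all genes passed), with the Il1rap call (0.90 ± 0.28, adjusted p = 0.00798) lost without 21-week-WT (adjusted p = 0.129). Between cDC2 and macrophages 4 were higher and 1 lower (median 0.54, 36.4% of all genes), where the Nlrp3 call (0.96 ± 0.37, adjusted p = 0.0351) was lost when any single library was left out, with adjusted p from 0.0569 to 0.0856. Between mast cells and macrophages 1 was higher and 6 lower (median -1.98 against -0.10, 54.5% of all genes), where Il1a, Il1b and Nlrp3 had log2 differences of -4.38, -1.98 and -1.47. These 3 lost their calls without 21-week-WT (adjusted p = 0.0713, 0.146 and 0.0508) and without 21-week-DB (0.133, 0.0753 and 0.130), and Il1b also without 12-week-DB (0.0554). Of 12 early response genes such as Fos and Egr1, 10 were higher in neutrophils, 10 in monocytes, 8 in cDC2 and 10 in mast cells than in macrophages and none lower, and their part in the members' calls was not tested.

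Between antigen-presenting cells, Xcr1+ cells were lower than cDC2 in 4 members and higher in none (median -2.37 against -0.05, 16.3% of all genes). These were Il1r1, Nlrp3 (-2.53 ± 0.58, adjusted p = 0.00121), Il1r2 (-2.37 ± 0.47, adjusted p = 0.000178) and Il1rn (adjusted p = 0.00226), and the Nlrp3 and Il1rn calls were lost without 21-week-WT (adjusted p = 0.0761 and 0.0902). Cd207+ cells were higher than cDC2 in 4 members, Il1r2, Nlrp3, Il1rap and Il18, and lower in none (median 1.86 against -0.15, 19.3% of all genes). The Il1b difference between Cd207+ cells and cDC2 was 0.71 on the log2 scale and did not pass (adjusted p = 0.534), since Cd207+ cells were lower in 12-week-WT and 21-week-WT and higher in both DB libraries. Among lymphocytes, dermal γδ T cells were above αβ T cells in Il1r1 and below them in Il1r2, Casp1 and Il18 (13.4% of all genes passed, member median -0.70 against 0.00). ILC2 differed from αβ T cells in Il1r1 alone (10.8% of all genes passed, member median 0.25 against 0.03). The Il18 difference between the T cell classes (-1.87 ± 0.66, adjusted p = 0.0436) was lost without either library of 12 weeks and without 21-week-WT (adjusted p = 0.0983, 0.179 and 0.186).

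**Figure D3:**
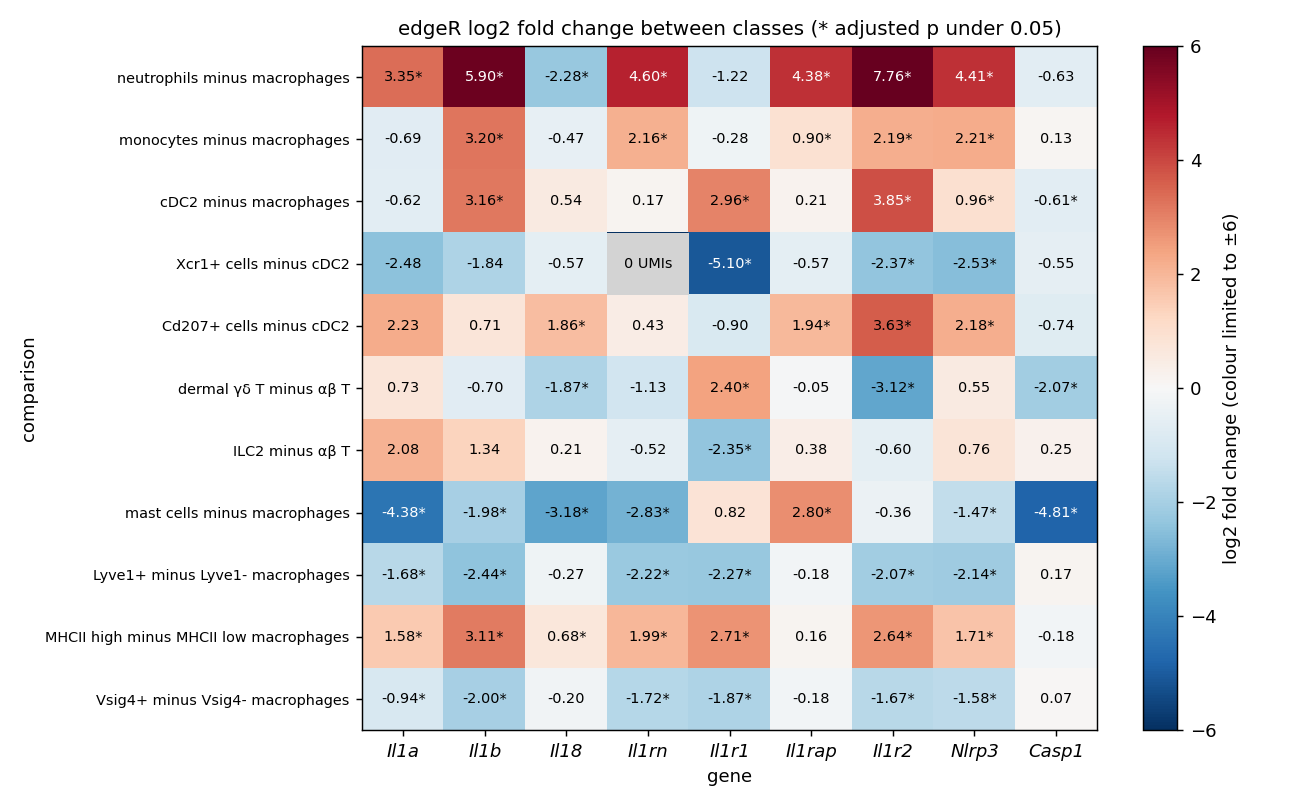
Log2 differences (edgeR) of the 9 genes in 11 comparisons between classes or macrophage subsets, colour limited to 6 in either direction, with an asterisk where the adjusted p was under 0.05 and Il1rn in Xcr1+ cells marked as 0 UMIs. The row of neutrophils against macrophages is high in 6 genes, and the rows for Lyve1+ and Vsig4+ macrophages are low in the same 6 genes that are high in MHCII high macrophages.

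A wider list of 48 genes of the interleukin-1 family, its signalling and other inflammasomes, of which 44 are in the matrices, was counted in the same fits. Of the 38 tested, 15 were higher and 7 lower in neutrophils than in macrophages, led by Nlrp12, a sensor of myeloid cells (10.03 ± 0.72, adjusted p = 1.16e-13), and Il18rap, a chain of the interleukin-18 receptor (4.23 ± 0.27, adjusted p = 5.36e-18). P2rx7, the ATP-gated channel upstream of NLRP3, was lower in neutrophils (-3.41 ± 0.48, adjusted p = 9.93e-08), in cDC2 (-2.32) and in monocytes (-1.74) than in macrophages. Monocytes had 19 genes higher and 7 lower than macrophages and cDC2 had 13 higher and 8 lower. Mefv, the gene of pyrin, another inflammasome sensor, was among the 3 largest upward differences in both (3.68 and 3.16). Il18r1, the ligand-binding chain for interleukin-18, was higher in cDC2 than in macrophages (3.01 ± 0.28, adjusted p = 3.34e-12) and lower in Xcr1+ cells than in cDC2 (-2.95), where 1 gene was higher and 16 were lower. Against cDC2, Cd207+ cells had 4 genes higher and 8 lower, with Nlrc4, a sensor of bacterial proteins, at 1.97 and Sigirr, an inhibitory receptor of the family, at -2.68. Dermal γδ T cells had 2 higher and 8 lower than αβ T cells, ILC2 8 higher and 1 lower, and mast cells 10 higher and 14 lower than macrophages. Among the genes counted for ILC2, Il1rl1 is part of the gate that defines them and was bound to be higher. The shares of all genes that passed in these comparisons are those given above for the members, 48.9% for neutrophils and 54.5% for mast cells among them.

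Macrophages were split by their own H2-Ab1, Lyve1 or Vsig4 counts, and Il1b differed in each split. In MHCII high macrophages (log-normalised H2-Ab1 of at least 2) Il1b was 144, 113, 621 and 1599.9 CPM, and in MHCII low macrophages 13.6, 15.5, 80.0 and 218 CPM. In Lyve1+ macrophages it was 39.2, 22.1, 139 and 101 CPM against 107, 89.1, 759 and 1045 CPM in Lyve1- macrophages. In Vsig4+ macrophages, a gene of lining macrophages, it was 18.5, 24.5, 121 and 114 CPM against 75.6, 57.3, 490 and 562 CPM without Vsig4. The direction was the same in all 4 libraries in all 3 splits. With the 2 subsets of each library paired, 7 of 9 members were higher and none lower in MHCII high macrophages (member median 1.71 against -0.01 over all genes, 29.9% of 11832 genes passed). In Lyve1+ macrophages 6 were lower and none higher (median -2.07 against 0.01, 26.2% of 12064 genes), and in Vsig4+ macrophages 6 were lower and none higher (median -1.58 against 0.00, 23.3% of 11569 genes). Without the library block, so with the subsets of a library unpaired, the called members were 2, 1 and 1. Il1b differed by 3.11 ± 0.09 (adjusted p = 1.42e-08), -2.44 ± 0.27 (adjusted p = 0.00038) and -2.00 ± 0.12 (adjusted p = 5.07e-07) on the log2 scale in these 3 comparisons with the block.

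The 6 genes called in all 3 splits were Il1a, Il1b, Il1rn, Il1r1, Il1r2 and Nlrp3, and Il18 passed in the MHCII split alone (0.68 ± 0.13, adjusted p = 0.00272). Casp1 and Il1rap passed in none of them, with Casp1 at -0.18 (adjusted p = 0.0843) for MHCII high and 0.17 (adjusted p = 0.0923) for Lyve1+ macrophages. The splits used each barcode's own counts, and the MHCII high barcodes also carried more cDC2 markers (Cd209a, Flt3 and Mgl2 summed to 304, 164, 203 and 119 CPM, against 113, 39.9, 36.4 and 19.6 in MHCII low and 993 to 1377 in cDC2). Without macrophages positive for Cd209a or Flt3, the counts of called members were again 7, 6 and 6 and Il1b differed by 3.07, -3.07 and -2.21. Monocyte markers were also higher in MHCII high macrophages (38.6, 71.5, 182 and 164 CPM against 7.40, 22.7, 26.6 and 31.9), and 12 early response genes such as Fos and Egr1 summed to 8945, 6065, 10877 and 10806 CPM against 6023, 3467, 6624 and 8084. Of these 12 genes 11 were higher and none lower in MHCII high macrophages, 12 were lower in Lyve1+ and 10 lower in Vsig4+ macrophages, and their part in the result was not tested. Of the wider list, 14 of 39 tested genes were higher and 3 lower in MHCII high macrophages, with Mefv at 3.34 ± 0.19 (adjusted p = 9.09e-07) and Ninj1, which ruptures the membrane of dying cells, at -1.18. The wider list had 3 of 40 higher and 13 lower in Lyve1+ macrophages, and 5 of 39 higher and 12 lower in Vsig4+ macrophages.

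**Figure D4:**
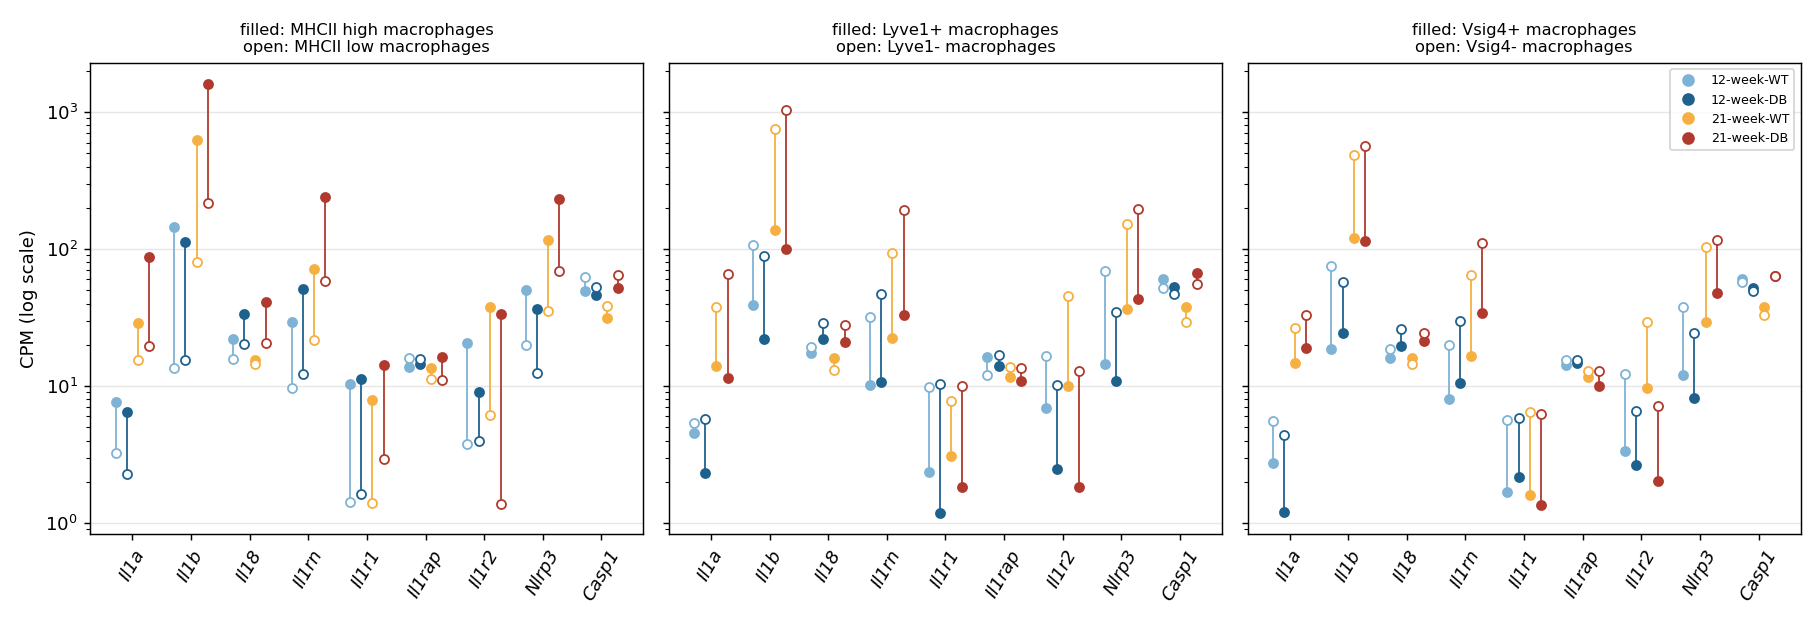
Level (CPM, log axis) of the 9 genes in macrophage subsets of each library, with filled symbols for MHCII high, Lyve1+ or Vsig4+ macrophages, open symbols for the rest and a line joining the pair of a library. Il1b is above its pair in MHCII high macrophages and below it in Lyve1+ and Vsig4+ macrophages in all 4 libraries, while Casp1 pairs lie close together.

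Macrophages with both Ccl2 and Cxcl1 UMIs, 97 to 207 barcodes per library, were described without a test. Their Il1b level was 89.9, 402, 1347 and 1528 CPM against 55.8, 31.5, 197 and 172 CPM in the other macrophages. Nlrp3 was 131, 157, 287 and 345 CPM against 20.4, 13.6, 42.7 and 43.1, and Il1rn was 42.6, 90.1, 164 and 309 CPM against 13.8, 22.8, 28.3 and 38.8. Each of the 3 genes was thus higher in the chemokine-positive macrophages of every library. The early response genes summed to 13552, 16393, 18326 and 18745 CPM in these macrophages, against 7038, 4412, 8812 and 8387 CPM in all macrophages, and their part in the difference was not tested.

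Part of the neutrophils carried the granule genes of neutrophil precursors, and the members differed with it. Granule precursor markers summed to 33073, 14160, 9778 and 1361 CPM in the neutrophil class, so they were highest in 12-week-WT and lowest in 21-week-DB. Neutrophils with fewer than 3 UMIs of Ngp, Camp and Ltf, the mature end, were 72.3%, 80.8%, 94.2% and 97.6% of the class. Their Il1b level was 7448, 14108, 8289 and 5472 CPM, against 269, 2184 and 1599 CPM in the 28, 14 and 6 precursor-like barcodes of the first 3 libraries. Il1r2 was 2892, 2426, 2816 and 739 CPM in the mature barcodes and 341, 391 and 519 CPM in the others, and Nlrp3 1025, 1672, 730 and 440 CPM against 78.5, 369 and 259. The 3 genes were higher in the mature barcodes in each of the 3 libraries. The split was on raw UMIs, and the mature barcodes had medians of 2670, 2495 and 2842.5 UMIs against 7632.5, 5180 and 7214.5. The 1 precursor-like barcode of 21-week-DB had 14080 CPM of Il1b, above the mature barcodes there. Its Il1r2 and Nlrp3, at 626 and 313 CPM, were below them. In the mature barcodes 21-week-DB was the lowest library for all 3. T cell markers summed to 7.10, 12.2, 73.3 and 124 CPM in the whole neutrophil class, highest in 21-week-DB, and their part in its values was not tested.

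Between conditions, a ratio of CPM levels was named where it passed 1.5-fold in either direction and the gene had at least 50 UMIs over the pair of libraries. In macrophages the largest ratios went with age. Il1b at 21 over 12 weeks was 6.09 (95% counting interval 5.69 to 6.53) in WT and 7.27 (6.82 to 7.76) in DB. Il1a was 4.69 (3.67 to 6.07) and 7.21 (5.68 to 9.24), Nlrp3 2.54 (2.29 to 2.82) and 4.13 (3.71 to 4.60), and Il1rn 2.89 (2.51 to 3.32) and 2.99 (2.70 to 3.31). In WT 5 of 9 members were higher and 1, Casp1 at 0.598 (0.539 to 0.663), was lower, where 14.9% of all genes passed the same bound. In DB 4 of 9 were higher and none lower, where 23.9% of all genes passed. The 4 genes higher in both were Il1a, Il1b, Il1rn and Nlrp3, and Il1r1, Il1rap and Il18 stayed within 1.5-fold at both genotypes.

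Between genotypes, fewer or as many members passed in macrophages. In DB over WT at 12 weeks, Il1rn was 1.60 (1.38 to 1.86) and Il1r2 0.602 (0.473 to 0.765), 2 of 9 members, where 13.2% of all genes passed. At 21 weeks 4 of 9 passed, where 22.9% of all genes did, with Il1rn at 1.66 (1.52 to 1.82), Casp1 at 1.83 (1.65 to 2.03), Il18 at 1.53 and Il1r2 at 0.222 (0.169 to 0.287). Il1b in macrophages was 0.869 (0.797 to 0.948) at 12 weeks and 1.04 (0.999 to 1.08) at 21 weeks. Over all macrophages the antagonist was thus higher and the decoy receptor lower in DB at both ages, without a replicate check, and Il1b of all macrophages was within 1.5-fold. The subset makeup differed between the libraries, since MHCII high macrophages were 543 of 1597, 719 of 1950, 756 of 1512 and 155 of 1404. Within the MHCII subsets at 21 weeks, Il1b was 2.57 (2.45 to 2.70) times higher in DB in MHCII high and 2.73 (2.505 to 2.97) times in MHCII low macrophages, ratios that the pooled value does not show. The other splits did not show them either. By the levels given above, Il1b at 21 weeks was lower in DB in Lyve1+ and Vsig4+ macrophages. It was higher in Lyve1- and Vsig4- macrophages, and all of these differences were within 1.5-fold. At 12 weeks the Il1b ratios of MHCII high and MHCII low macrophages were 0.789 and 1.14. The Il1rn ratios of the same MHCII subsets were 1.75 and 1.26 at 12 weeks and 3.35 and 2.69 at 21 weeks. Those of Il1r2 were 0.437 and 1.05 at 12 weeks and 0.889 (0.651 to 1.19) and 0.227 (0.123 to 0.398) at 21 weeks, so the lower Il1r2 of DB was found in MHCII high macrophages at 12 weeks and in MHCII low macrophages, from 17 UMIs in DB, at 21 weeks. A list of 6 glucocorticoid-responsive genes, among them Fkbp5, summed to 375, 437, 511 and 859 CPM in macrophages, highest in 21-week-DB, and their part in these ratios was not tested.

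In cDC2 and monocytes the Il1b level within the class was higher in DB at both ages as well as at the later age. Both classes were smaller in 21-week-DB than in 21-week-WT, with 228 against 1021 cDC2 and 69 against 313 monocyte barcodes. Over all kept barcodes Il1b was not past 1.5-fold higher in DB at 21 weeks. The DB over WT ratio of Il1b in cDC2 was 2.03 (1.94 to 2.14) at 12 weeks and 2.64 (2.58 to 2.70) at 21 weeks, and the 21 over 12 week ratio 4.65 (4.47 to 4.84) in WT and 6.03 (5.82 to 6.25) in DB. In monocytes the same 4 ratios were 1.92, 2.05, 3.47 and 3.69. Il1rn in cDC2 was 6.28 (5.42 to 7.29) in DB over WT at 21 weeks and 0.724 (0.553 to 0.943) at 12 weeks. Nlrp3 in cDC2 was 2.19 (1.99 to 2.41) at 21 weeks and 1.20 (1.02 to 1.40) at 12 weeks. The members with at least 50 UMIs that passed 1.5-fold in cDC2 were 1 of 8 in DB over WT at 12 weeks (7.43% of all genes), 6 of 9 at 21 weeks (23.2%), 4 of 9 with age in WT (18.0%) and 5 of 9 with age in DB (29.6%). In monocytes they were 2 of 5 (18.5%), 5 of 6 (26.9%), 2 of 7 (22.3%) and 3 of 4 (29.3%) in the same order. Neutrophil markers summed to 16.9 to 51.2 CPM in cDC2, highest in 12-week-WT where Il1b was lowest, and to 248, 350, 280 and 1099 CPM in monocytes, highest in 21-week-DB as was Il1b, against 88122 to 141082 CPM in neutrophils. The part of these markers in the Il1b ratios of either class was not tested.

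Cd207+ cells had the highest DB over WT ratios of Il1b of the classes described. They were 7.46 (5.55 to 10.2) at 12 weeks and 7.19 (6.19 to 8.39) at 21 weeks, from 13, 30, 11 and 35 barcodes. Il1b UMIs were in 19 of 30 barcodes in 12-week-DB, 7 of 11 in 21-week-WT and 31 of 35 in 21-week-DB. In 12-week-DB 2 barcodes held 33.7% of them, in 21-week-WT 1 barcode held 28.2%, and the top 2 of 21-week-DB held less. In 12-week-WT too few of the 13 barcodes had an Il1b UMI for such a share, fewer than the 7 of 21-week-WT. The ratio of 7.46 therefore has few positive barcodes in its WT library. The intervals cover counting error only, and the spread between so few barcodes was not tested. The Il1r2 ratios of Cd207+ cells were 0.884 and 0.786, so the decoy receptor of the same cells stayed within 1.5-fold. Dermal γδ T cells had Il1r1 ratios of 0.795 and 1.19 in DB over WT at 12 and 21 weeks, also within 1.5-fold.

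In neutrophils the direction differed between the ages. At 12 weeks Il1b was 2.98 (2.80 to 3.17) times higher in DB than in WT, Il1rn 6.07 (4.90 to 7.55) and Nlrp3 2.52 (2.13 to 2.99), and 5 of 6 members passed 1.5-fold, all higher, where 38.9% of all genes passed. At 21 weeks 4 of 5 were lower and none higher, where 50.4% of all genes passed, with Il1r2 at 0.292 (0.243 to 0.348) and Il1rn at 0.429 (0.313 to 0.579). With age 4 of 5 were higher in WT (43.0% of all genes) and 6 of 6 lower in DB (53.5%). Without the precursor-like barcodes, the log2 ratios of DB over WT at 12 weeks were 0.92 for Il1b, 2.22 for Il1rn and 0.71 for Nlrp3, against 1.58, 2.60 and 1.33 with them. The log2 ratios of 21 over 12 weeks in WT were then 0.15 for Il1b, 0.72 for Il1rn, -0.04 for Il1r2 and -0.29 for Il1rap in place of 1.20, 1.61, 0.86 and 0.68. In DB over WT at 21 weeks they were -0.60 for Il1b, -1.38 for Il1rn, -1.93 for Il1r2 and -0.73 for Nlrp3, against -0.41, -1.22, -1.78 and -0.61 with the precursor-like barcodes. The 12 early response genes summed to 14991, 26074, 22826 and 18151 CPM in neutrophils, in the same order of libraries as Il1b, and their part in these ratios was not tested.

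**Figure D5:**
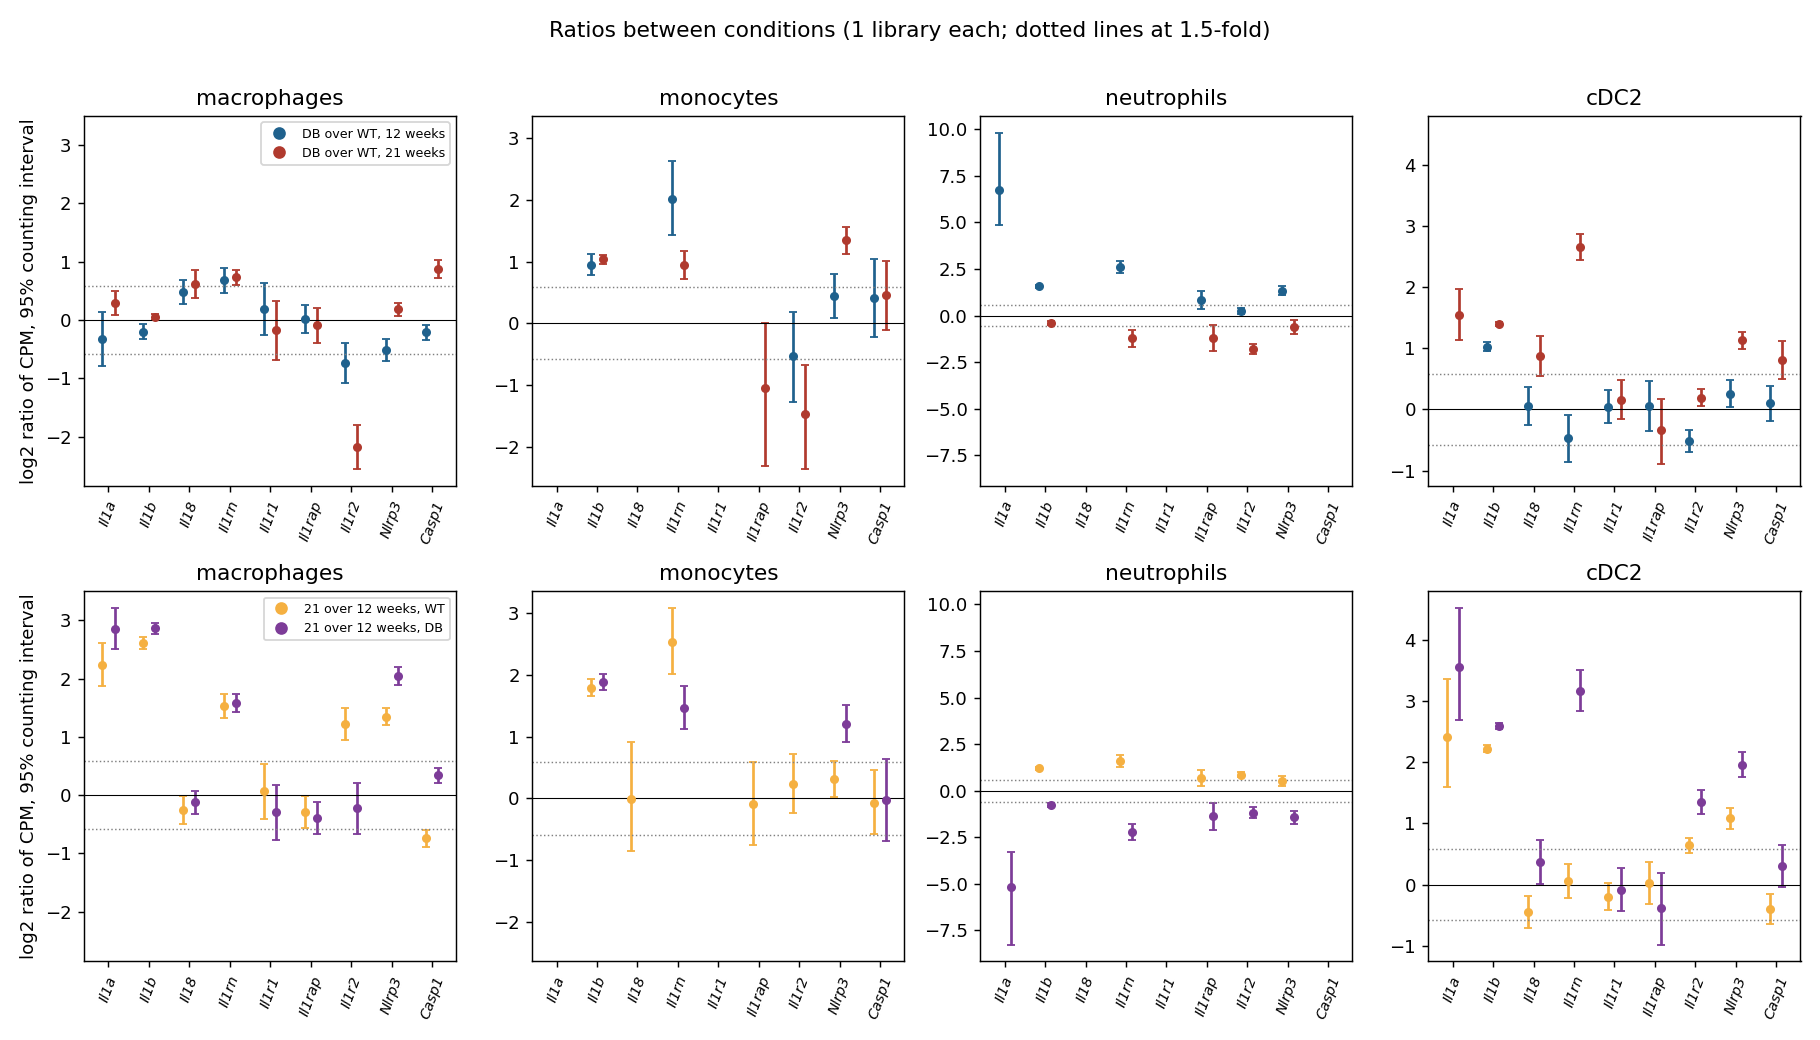
Log2 ratio of CPM between libraries with exact 95% counting intervals for members with at least 50 UMIs in macrophages, monocytes, neutrophils and cDC2, DB over WT at 12 and 21 weeks above and 21 over 12 weeks in WT and DB below, with dotted lines at 1.5-fold. Il1b with age lies above 1.5-fold in macrophages, monocytes and cDC2 of both genotypes, and the neutrophil ratios change sign between ages and genotypes.

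Over 45 sums of a class in a library, the genes whose log2 levels ran most like each member were found among 12633 genes, as a description of sums that share libraries and depth. Nlrp3 (Pearson r 0.913) was the second gene most like Il1b, after Sh2b2 (0.930) and before Tlr2 (0.910), a receptor for bacterial lipoproteins. Il1rn was most like Slc7a11, the cystine transporter (0.955), and the lectin receptors Clec4d (0.934) and Clec4e (0.921). Casp1 was most like Casp4, a second inflammatory caspase (0.784), and Il18 like Hcfc1r1 (0.872) and the chemokine gene Cxcl16 (0.861). Il1r2 ran with Dgat2 (0.842) and Hcar2 (0.839), and Il1rap with Rabgef1 (0.909). Il1r1 was unlike the other members, with r from -0.39 for Casp1 to 0.05 for Il18, and its most similar gene was Aqp3 (0.742).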

How the data were processed

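CD45+ hindpaw leukocytes of 4 conditions, 1 library each, were profiled with 10x 3′ v3 chemistry. The authors aligned reads to mm10 with Cell Ranger (5.0.0 in the submitters' processing notes, 6.0 in the methods) and deposited UMI counts per gene and barcode, without normalization, doublet removal or ambient RNA removal. The members, gene lists and gates were chosen with earlier results of these data known.

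Barcodes were gated on summed marker UMIs in Python 3.11.15: macrophages (C1qa, C1qb, C1qc, Pf4), monocytes (Plac8, Ly6c2, Chil3, Thbs1), neutrophils (S100a8, S100a9 with Retnlg, Csf3r, Cxcr2), cDC2 (Cd209a, Flt3, Mgl2 with H2-Ab1), Xcr1+ and Cd207+ cells (each with H2-Ab1), mast cells (Cpa3, Cma1, Mcpt4, Tpsb2), dermal γδ T (Cd3e, Cd3g, Trdc with Cd163l1 or Trdv4), αβ T (Cd3e, Cd3g, Trac), ILC2 (Gata3, Il1rl1, Hlf), NK (Ncr1, Klrb1c) and B cells (Cd79a, Cd79b, Ms4a1). Other Trdc+ T cells (Cd3e, Cd3g, Trdc with Cd7, Trat1, Gem or Fermt2, without Cd163l1 or Trdv4) numbered 14 to 19 per library. They entered the shared fit but were not ranked or described. Barcodes meeting more than 1 gate were left out of the classes. Counts were summed per class and library and given as CPM with exact Poisson intervals, shares with exact Clopper-Pearson intervals and ratios with exact conditional binomial intervals, all at 95%. Where a count was 0, a fold was given against a floor of 3 counts, which is not the upper limit of the 95% interval.

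Classes with at least 10 barcodes were compared with edgeR 4.0.16 in R 4.3.3 (TMM, filterByExpr, quasi-likelihood test, library as block, Benjamini-Hochberg adjusted p under 0.05), and the fit was tested on simulated counts. The class sums of a library come from the same mice, which is why the library pairs them. Errors after ± are standard errors, computed from the log2 difference before edgeR's shrinkage and the F statistic of the quasi-likelihood test. Alternatives tried were 500 genes or more per barcode, no more than 5% mitochondrial UMIs, removal of the highest Scrublet scores (scanpy 1.11.5, 0.8% per 1000 barcodes), doubled marker thresholds, DESeq2 1.42.0 and its size factors, no gene filter, no block, only the 2 classes compared and each library left out. After the data were seen, fits without shared barcodes, without granule precursors among neutrophils and without Cd209a or Flt3 positive macrophages were added. All 9 members are described; from the wider list at most the 3 largest differences in each direction were named.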

Additional observations from a re-analysis of the deposited data

Results flagged for a closer look

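In neutrophils and αβ T cells, ratios past 1.5-fold with at least 50 UMIs lay on opposite sides of 1 between the 2 ages or the 2 genotypes, and in each case the difference was not tested, because each condition had 1 library. In neutrophils the DB over WT ratio of Il1rn was 6.07 at 12 weeks and 0.429 at 21 weeks, that of Nlrp3 2.52 and 0.654, and that of Il1rap 1.79 and 0.440. The 21 over 12 week ratio in neutrophils was 2.30 in WT and 0.582 in DB for Il1b, 3.05 and 0.216 for Il1rn, 1.81 and 0.443 for Il1r2, and 1.60 and 0.393 for Il1rap. Without precursor-like barcodes the 21 over 12 week log2 ratio in WT neutrophils was -0.038 for Il1r2 and -0.29 for Il1rap, so these no longer lay on opposite sides, and 0.15 for Il1b, within 1.5-fold. The DB over WT log2 ratio at 12 weeks was then 0.33 for Il1rap, also within 1.5-fold, and 0.71 for Nlrp3 and 2.22 for Il1rn. In αβ T cells, where 13 to 123 Il1b UMIs were counted per library, the Il1b ratio of DB over WT was 3.38 at 12 weeks and 0.521 at 21 weeks, and that of 21 over 12 weeks 3.54 in WT and 0.546 in DB. With the highest Scrublet scores removed, the last of these became a log2 ratio of 0.49 in DB beside 0.79 in WT, so the opposite directions with age were no longer present.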

How the results depend on the processing

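Of 210 recomputed counts, 198 stayed within 1.5 times the main count. The others were 3 members called (5 in the main fit) for monocytes against macrophages in DESeq2, 7 (4) for Cd207+ cells against cDC2 and 2 (1) for ILC2 against αβ T cells without a gene filter, and 2 for the latter with only the 2 classes fitted. Without the replicate block the calls were 3 (5) for cDC2 against macrophages, 1 (6) for Lyve1+, 2 (7) for MHCII high and 1 (6) for Vsig4+ macrophages, and in the other comparisons the block moved the count by less. Leaving out 1 library gave 5 to 7 calls for neutrophils, 4 to 5 for monocytes, 4 to 4 for cDC2 and 4 to 7 for mast cells against macrophages, 2 to 4 for Xcr1+ and 4 to 5 for Cd207+ cells against cDC2, 3 to 4 for dermal γδ T and 1 to 1 for ILC2 against αβ T cells, and 6 to 7, 7 to 7 and 6 to 6 for the Lyve1, MHCII and Vsig4 splits. The lowest counts, 2 for Xcr1+ cells and 4 for mast cells, came without 21-week-WT. Members past 1.5-fold in DB over WT at 12 weeks, over all classes, were 28 with at least 20 UMIs and 18 with at least 50, and gene and library shares of at least 25% were 38 after thinning to 2000 UMIs and 87 before.

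Of 1427 recomputed member differences 1326 kept direction and call, 48 lost the call, 27 gained it and 26 reversed; the only reversed one that was called is Il1a in neutrophils against macrophages, -0.31 without 12-week-DB. The other reversed log2 differences were not called, in the main fit or in the alternative. With doubled thresholds they were 0.22 (Il1r1, monocytes against macrophages), 0.50 and 0.15 (Il1b and Il1rap, dermal γδ against αβ T), -0.11 (Il18, ILC2 against αβ T), 0.27 (Il1r2, mast cells against macrophages) and -0.016 (Il1rap, MHCII split). With Scrublet scores removed they were 0.21 and 0.087 (Il1b and Il1rap, dermal γδ against αβ T) and 0.55 and -0.072 (Il1rn and Il18, ILC2 against αβ T). Without Cd209a or Flt3 positive macrophages they were 0.067 (Il1r1, monocytes) and 0.24 (Il1r2, mast cells). Il1rn was -0.0028 in cDC2 against macrophages and -0.24 in Cd207+ cells against cDC2 with only the 2 classes, and -0.21 in the latter in DESeq2. With 1 library left out, the range was -0.31 to 4.21 for Il1a in neutrophils, -0.33 to 0.52 for Il1rn in cDC2 and -0.74 to 0.16 for Il1r2 in mast cells against macrophages, -2.34 to 0.59 for Il1rn in Cd207+ cells against cDC2, -0.25 to 0.033 for Il1rap and -0.48 to 1.08 for Nlrp3 in dermal γδ against αβ T, and -0.74 to 2.09 for Il1b, -1.06 to 0.088 for Il1rn and -0.27 to 0.80 for Il18 in ILC2 against αβ T. Of 1320 ratios 1206 stayed within their counting interval, 108 moved out of it and 6 that had passed 1.5-fold reversed. The reversed log2 ratios were 0.49 for Il1b in αβ T and 0.0073 for Il1r2 in ILC2 (21 over 12 weeks in DB, Scrublet scores removed), 0.052 and 3.49 for Il1b in ILC2 (DB over WT at 12 weeks and 21 over 12 weeks in WT, doubled thresholds), and -0.038 for Il1r2 and -0.29 for Il1rap in neutrophils without precursors (21 over 12 weeks in WT). A ratio within 1.5-fold that changed sign was not counted as reversed. Examples in neutrophils without precursors were Nlrp3 at -0.49 (21 over 12 weeks in WT) and Il1r2 at -0.25 (DB over WT at 12 weeks). The cause was not tested.

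Each condition had 1 library of pooled mice, so no ratio between conditions has a replicate check. Small classes, such as 11 to 35 Cd207+ cells per library and 41 neutrophils in 21-week-DB, give wide intervals. Free RNA was not removed, and gated shares depend on depth.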
